A study of Mus musculus with 37 samples.

Results

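Oxidative phosphorylation is carried out by 5 complexes of the inner mitochondrial membrane, and the genes described here are those of its subunits that lie in the nuclear genome. Members were taken by symbol and biotype: protein-coding genes named Nduf, Sdha to Sdhd, Uqcr, Cox4 to Cox8 or Atp5. The rule found 92 genes in at least 1 of the 4 RNA-seq tables of the series. Of these, 91 were among the 25053 genes listed for Hira oocytes, 91 among the 19033 listed for Cabin1 oocytes, 92 among the 24305 listed for Cabin1 2-cell embryos and 89 among the 15855 listed for injected 2-cell embryos. By role, 36 encode subunits of complex I and 8 encode complex I assembly factors, which share the Nduf prefix. A further 4 belong to complex II, 8 to complex III, 19 to complex IV and 17 to complex V.

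Complexes I and II pass electrons from NADH and succinate to ubiquinone, complex III hands them on to cytochrome c, and complex IV (cytochrome c oxidase) delivers them to oxygen. Complexes I, III and IV pump protons as they do so, and complex V (ATP synthase) makes ATP from the gradient. Except for complex II, each complex also holds subunits encoded by mitochondrial DNA, so that RNA from both genomes is needed. Oocytes hold a large store of mitochondria and rely on oxidation of pyruvate, and the early embryo uses mitochondria and RNA inherited from the oocyte. Several subunits of complex IV come in paired isoforms: Cox4i2 is the form known from lung and from cells short of oxygen, Cox6a2 the form of heart and skeletal muscle, and Cox6b2 the form of testis.

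The RNA-seq samples were fully grown germinal vesicle (GV) oocytes and 2-cell embryos of C57BL/6 mice. ZH KO oocytes carried Zp3-Cre and floxed alleles of Hira, and CabZ KO oocytes carried Zp3-Cre and floxed alleles of Cabin1, both genes encoding parts of the Hira complex, a chaperone for histone H3.3. ZH Het and CabZ Het controls carried Zp3-Cre as well, with 1 floxed allele, so Cre and the loss of 1 gene copy were shared by both groups of each line. Zp3 drives Cre in growing oocytes. GV oocytes of both lines and 2-cell embryos of the CabZ line gave 4 libraries per group. For CabZ embryos, Het and KO name the genotype of the female and her oocytes. The paper used fertilised and parthenogenetic CabZ embryos, and its methods do not state which of them were sequenced at the 2-cell stage. In a separate experiment wild-type GV oocytes were injected with RNA for GFP (4 libraries) or Zscan4d (3 libraries), matured and activated without fertilisation to the 2-cell stage. The methods describe pools of oocytes per library and the labels describe individual cells. Accessible chromatin was mapped by ATAC-seq in CabZ Het and CabZ KO GV oocytes, 3 libraries each. Nothing ties libraries to separate mice, so p-values measure the spread between libraries, which may in part be technical.

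Each library held about 5790279 to 21761876 reads, estimated from the step between low values, and CabZ KO 2-cell libraries were the shallowest (5790279 to 6298727 reads). The targeted gene did not check the labels of the ZH line, since Hira had 2 to 14 reads in ZH Het and 0 to 13 in ZH KO libraries over its whole span. Cabin1 was lower in CabZ KO oocytes (0.0242 ± 0.0167 against 0.119 ± 0.0312 FPKM, SD, n = 4 each) and 2-cell embryos (0.134 ± 0.0497 against 0.322 ± 0.0978), with an exact two-sided permutation p of 0.0286 for each, the smallest that 4 against 4 allows. Zscan4d was at 117 ± 34.4 FPKM in GFP libraries (n = 4) and 79.4 ± 7.94 in the libraries labelled Zscan4 (n = 3, exact permutation p = 0.229), so it was not higher in the latter. The RNA was injected at the GV stage, and the paper reports overexpression by qRT-PCR, immunofluorescence and western blot against uninjected controls. The Zscan4d level in 2-cell embryos, high in GFP libraries as well, therefore neither checks nor contradicts the label. Directions for that group are those of the libraries so labelled. Oocyte marker genes were abundant in all GV libraries, with a summed level of 1367 to 3746 FPKM, whereas 9 to 12 granulosa and cumulus cell markers summed to at most 2.99 FPKM in GV libraries. In bulk RNA, fewer cells of a type and less RNA per cell cannot be told apart.

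In Hira mutant oocytes the transcripts of the respiratory chain were, as a group, more abundant. FPKM here is reads scaled to library size and to the length of the whole gene span, introns included, and differences are on the log2(FPKM + 1) scale. Of 91 members, 79 passed the filter (mean of at least 1 FPKM). Of these 79, 42 (53.2%) were higher and 6 (7.59%) lower in ZH KO than in ZH Het oocytes (limma, Benjamini-Hochberg adjusted p under 0.05), beside 25.6% higher and 26.3% lower among all 5792 genes tested. The median difference of the members was 0.46 and that of all genes was -0.04. With a fold change above 2 also required, 16 members rose and 3 fell, beside 10.5% and 7.2% of all genes. ZH KO and ZH Het libraries did not overlap for 37 members that were higher and 5 that were lower in KO, beside 23.7% and 23.2% of all genes. Scaling each library to its median gene moved the median of all genes to -0.19 and the split to 34 higher and 10 lower, and the median of members still lay 0.50 above that of all genes.

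The share of reads showed the same difference without a test per gene. All members together took 1.00%, 0.854%, 0.974% and 1.14% of the reads in the 4 ZH Het libraries, and 1.84%, 1.36%, 1.51% and 1.67% in the 4 ZH KO libraries. The groups did not overlap. These are shares of the reads on listed genes, which made up 74.2 to 74.7% of the total behind the FPKM in ZH Het and 66.0 to 68.2% in ZH KO libraries. The mean share of complex IV was 0.223% in ZH Het and 0.439% in ZH KO oocytes, without overlap, while that of complex II overlapped (0.0591 to 0.0704% in ZH Het and 0.0540 to 0.0717% in ZH KO). Beside this, markers of the 2-cell embryo summed to 78.8 to 116 FPKM in ZH Het and 266 to 407 in ZH KO oocytes, and oocyte markers to 2297 to 2367 and 1367 to 2069. The 12 granulosa and cumulus markers summed to 0.518 to 0.778 FPKM in ZH Het, with Amhr2 at 0 in all libraries, and to 1.94 to 2.99 in ZH KO oocytes, with Foxl2 and Has2 at 0. The part of these markers in the result was not tested.

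**Figure D1:**
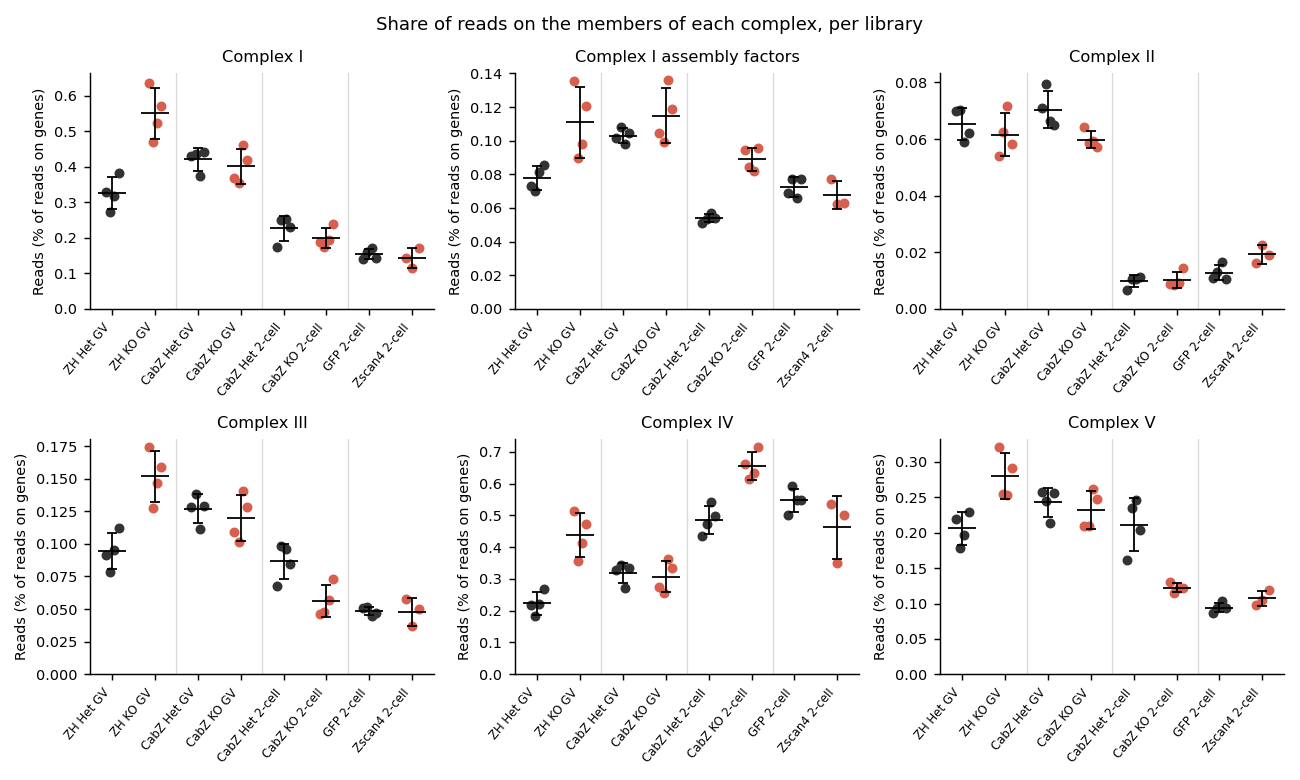
Share of the reads on listed genes (percent, vertical axis from 0) that fell on the members of each complex, 1 panel per complex, with each point 1 library (black for controls, red for KO or Zscan4), the horizontal line the group mean and the bars 1 SD. For complex IV the ZH KO libraries lie above the ZH Het libraries (means 0.439% and 0.223%) and the CabZ KO 2-cell libraries above the CabZ Het ones (0.613 to 0.715% against 0.436 to 0.541%), while for complex II the ZH groups overlap.

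Complexes III, IV and V had the highest medians. Beside the counts that follow, 25.6% of all genes tested were higher and 26.3% lower. In complex IV 11 of 16 tested members were higher and 1 lower (median difference 0.72), and in complex III 6 of 8 were higher (median 0.72). In complex V 7 of 13 were higher and 2 lower (median 0.53), and in complex I 17 of 34 were higher and 2 lower (median 0.39). In complex II 1 of 4 (25%) was lower, Sdhc, near the share of all genes. The other 3 were not called, and all 4 differences were below 0 (median -0.37). Differences between complexes were not tested.

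Within complexes I and V the members were also counted by role, beside 25.6% higher and 26.3% lower among all genes tested. The accessory subunits of complex I, which surround its catalytic core, gave 15 higher of 28 tested, with a median of 0.47. The core subunits, which carry NADH oxidation and electron transfer, gave 2 higher and 2 lower of 6, with a median of 0.25. These 2 counts (33.3% each) were near the shares of all genes. In complex V the catalytic F1 head gave 2 lower of 5 and a median of -0.14, whereas 7 of the other 8 subunits were higher, with a median of 0.76. The difference between these subgroups was not tested.

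**Figure D2:**
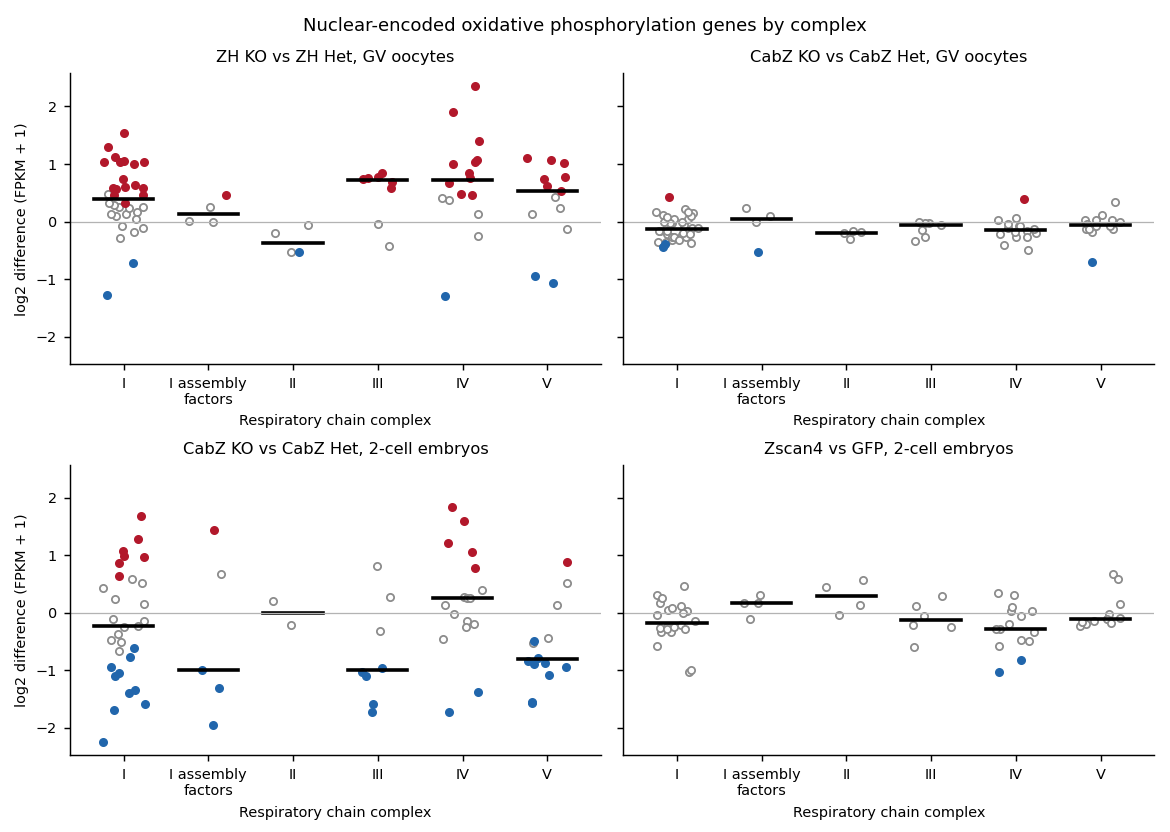
Log2 difference (KO minus Het, or Zscan4 minus GFP, log2(FPKM + 1) scale, vertical axis) of each tested member in the 4 comparisons, grouped by complex, with red points for higher and blue points for lower at adjusted p under 0.05, open points for the rest and a black line at the median. In ZH oocytes most points of complexes III and IV lie above 0 (median 0.72 each) and those of complex II below it, in CabZ oocytes the points lie close to 0, and in CabZ 2-cell embryos complexes III and V lie mostly below 0 (medians -0.99 and -0.81).

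Cox4i2, the second isoform of subunit 4 of cytochrome c oxidase, showed the largest difference of all members. The gene spans chr2:152754173-152765037 on the plus strand (GRCm38). Its level was 0.0463, 0.0860, 0.111 and 0.0724 FPKM in the 4 ZH Het libraries (7 to 20 reads) and 5.04, 4.57, 4.60 and 3.83 FPKM in the 4 ZH KO libraries (565 to 850 reads). Every KO library was far above every Het library, and the ratio of the means was 57.1. The log2(FPKM + 1) difference was 2.35 (SE 0.11, limma adjusted p = 1.24e-06), a scale that understates the change of a gene this low in controls. Cox4i2 passed the filter only through the KO libraries, so this p-value describes a gene admitted by its high group.

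Ndufa4l2, a paralogue of the complex IV subunit gene Ndufa4 known for its rise when oxygen is short, was at 0.756, 0.392, 0.799 and 0.607 FPKM in ZH Het and at 3.75, 5.27, 7.65 and 4.42 FPKM in ZH KO oocytes. All KO libraries were higher, with a difference of 1.91 (SE 0.19, limma adjusted p = 5.72e-05). Ndufa4l2 too passed the filter only through the KO libraries. Ndufa4 itself rose by 1.08.

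Small accessory subunits followed. Ndufa1, a membrane subunit of complex I encoded on the X chromosome (chrX:37187588-37191163), was at 13.3, 11.5, 13.8 and 18.2 FPKM in ZH Het and 51.4, 34.6, 44.3 and 42.8 FPKM in ZH KO libraries, a difference of 1.55 (SE 0.17). The lowest KO library was above the highest Het library. Cox6c, a subunit of complex IV, went from 7.87 to 12.4 FPKM across ZH Het to 22.5 to 32.6 FPKM across ZH KO libraries (1.40, SE 0.17), and 43.2% of its span is shared with Vps13b on the other strand. Ndufa11, of the membrane arm of complex I, was at 16.3 to 29.1 FPKM in ZH Het and 44.4 to 68.7 FPKM in ZH KO libraries (1.30, SE 0.20), again without overlap. Ndufb11, also X-linked and the complex I member of highest FPKM, was at 97.3, 77.7, 98.9 and 116 FPKM in ZH Het and 223, 183, 212 and 226 FPKM in ZH KO oocytes (1.12, SE 0.15). The limma adjusted p was 9.35e-05 for Ndufa1, 0.000156 for Cox6c, 0.000588 for Ndufa11 and 0.000273 for Ndufb11.

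Of the 6 members that fell, 5 are described here. Cox6a2, the muscle isoform of complex IV subunit 6a, was at 11.3, 10.6, 14.6 and 11.4 FPKM in ZH Het and 5.18, 4.05, 3.32 and 4.77 FPKM in ZH KO oocytes, without overlap (-1.29, SE 0.15, limma adjusted p = 0.000152). Its whole span lies inside Itgad on the other strand, and reads of the pair cannot be told apart without strand. Ndufv1, the core subunit that binds NADH and FMN, was at 14.8, 12.1, 7.22 and 10.4 FPKM in ZH Het and 1.79, 8.58, 3.87 and 3.38 FPKM in ZH KO libraries. The groups overlapped at 1 library each, the difference was -1.27 (SE 0.34, limma adjusted p = 0.0119), and it was lost when the filter on low values was dropped (adjusted p = 0.0545).

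Atp5b and Atp5a1 encode the β and α subunits of the F1 head, where ATP is formed. Atp5b was at 47.2, 40.6, 31.0 and 37.7 FPKM in ZH Het and 14.3, 26.3, 14.4 and 18.7 FPKM in ZH KO oocytes, without overlap (-1.07, SE 0.21, limma adjusted p = 0.00233). Atp5a1 fell by 0.94 (adjusted p = 0.0146), with overlapping groups. Sdhc, a membrane anchor of complex II, fell by 0.53 (adjusted p = 0.00283).

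The members of highest FPKM in their complex, beside Ndufb11 described above, were Uqcrq, Cox4i1, Sdhd and Atp5e. Uqcrq, a small subunit of complex III, was at 53.9 ± 11.5 FPKM in ZH Het and 81.3 ± 14.1 in ZH KO oocytes (SD, n = 4 each; 0.59, limma adjusted p = 0.0220), and Cox4i1, the common isoform of subunit 4, at 43.3 ± 10.5 and 75.2 ± 22.7 (0.76, adjusted p = 0.0233). The groups overlapped for both genes, both calls were lost in some fits that left out 1 library, and Cox4i1 shares its span with another annotated gene, Gm20388, on the same strand. Sdhd, a membrane anchor of complex II, was at 40.0 ± 5.43 and 38.6 ± 7.48 FPKM (adjusted p = 0.772), and Atp5e, the ε subunit of F1, at 58.0 ± 11.6 and 64.2 ± 16.3 (adjusted p = 0.599).

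**Figure D3:**
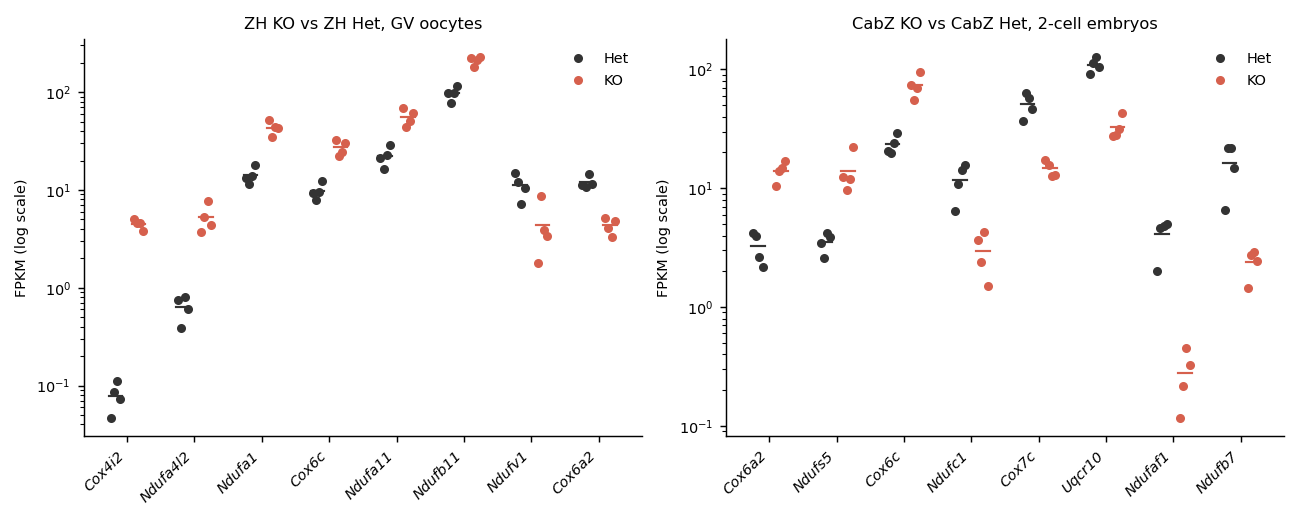
FPKM of single libraries (log axis; black Het, red KO, lines at group means) for the 8 called members with the largest differences in ZH oocytes (left) and in CabZ 2-cell embryos (right). In ZH oocytes Cox4i2 lies between 0.0463 and 0.111 FPKM in Het and between 3.83 and 5.04 FPKM in KO libraries, and Cox6a2 lies lower in ZH KO oocytes but higher in CabZ KO 2-cell embryos than in their controls.

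In ZH oocytes the median difference was higher among members with short coding sequences than among long ones, as it was among genes at large. Of 60 tested members with a coding length of at most 600 bases, 36 were higher and 2 lower (median 0.55), and of 11 with at least 900 bases, 3 were higher and 4 lower (median -0.11). The rank correlation of difference and coding length was -0.36 over the 79 members. Over 4321 protein-coding genes tested it was -0.32, with medians of 0.26 for short and -0.29 for long genes, of which 39.9% and 14.2% were higher. These are descriptions across genes, which are not independent replicates, and the part of coding length in the result was not tested. In CabZ oocytes the correlation was 0.12 for members and 0.10 for all such genes, and in CabZ 2-cell embryos -0.20 and -0.0035.

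**Figure D4:**
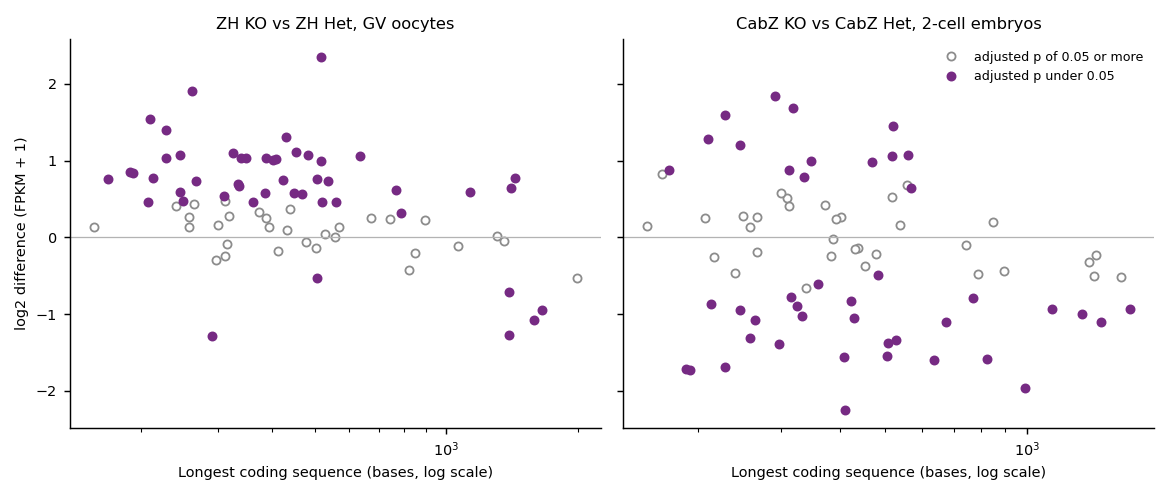
Log2 difference of each tested member (vertical axis, log2(FPKM + 1) scale) against the length of its longest coding sequence in bases (log axis) in ZH oocytes (left) and CabZ 2-cell embryos (right), with filled points for adjusted p under 0.05. In ZH oocytes members of at most 600 bases lie mostly above 0 (median 0.55) and those of 900 bases or more around or below it (median -0.11).

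In CabZ KO oocytes few members were called. Of 80 tested members, 2 were higher and 4 lower than in CabZ Het oocytes (limma adjusted p under 0.05), beside 8.2% higher and 5.73% lower among all 6339 genes tested. The median difference was -0.11 (all genes -0.02), with 21 members above 0 and 59 below. CabZ KO and CabZ Het libraries did not overlap for 2 members that were higher and 6 that were lower in KO, beside 11.2% and 9.39% of all genes. No member passed adjusted p under 0.05 with a fold change above 2 in limma's test, beside 2.07% of all genes higher and 0.836% lower. None passed that fold change at an unadjusted p under 0.05 either. With any fold, 3 members were higher and 12 lower at an unadjusted p under 0.05. The share of all genes at that unadjusted threshold is not at hand, so these 2 counts are not read as a tendency. Members took 1.14 to 1.35% of the reads in CabZ Het and 1.08 to 1.42% in CabZ KO libraries. The share of complex II was 0.0649 to 0.0796% in Het and 0.0574 to 0.0641% in KO, without overlap. Those of complexes I, III, IV and V overlapped. Median differences were -0.12 for complex I, -0.19 for II, -0.06 for III, -0.14 for IV and -0.05 for V, and differences between complexes were not tested.

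The 2 higher members were Ndufa8 and Cox7a2l. Ndufa8, an accessory subunit of complex I, was at 13.7, 13.0, 14.1 and 15.0 FPKM in CabZ Het and 16.6, 18.8, 21.1 and 19.9 FPKM in CabZ KO oocytes (0.42, SE 0.10, limma adjusted p = 0.0237). Cox7a2l, which takes part in joining complexes III and IV, was at 25.5, 25.4, 25.5 and 28.9 FPKM in Het and 31.6, 32.0, 39.2 and 37.7 FPKM in KO libraries (0.40, SE 0.11, adjusted p = 0.0353). Neither overlapped between groups, and both were also higher in ZH KO oocytes (0.99 and 1.00).

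The 4 lower members were Atp5g3, Ndufaf8, Ndufa6 and Ndufa13. Atp5g3, 1 of the 3 genes for the membrane ring subunit c of ATP synthase, was at 13.2, 12.7, 9.76 and 11.8 FPKM in CabZ Het and 6.07, 6.47, 9.74 and 5.90 FPKM in CabZ KO oocytes (-0.69, SE 0.16, adjusted p = 0.0167). The third KO library all but reached the lowest Het library. Ndufaf8, a complex I assembly factor, fell by 0.53 (adjusted p = 0.0143), Ndufa6 by 0.45 (adjusted p = 0.0343) and Ndufa13 by 0.39 (adjusted p = 0.0488). None of the 6 calls remained in every limma fit that left out 1 library, and higher calls then numbered 0 to 2 and lower calls 0 to 5.

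Cox4i2 did not pass the filter in CabZ oocytes. Its level was 0.155, 0.348, 0.108 and 0.172 FPKM in the CabZ Het libraries (13 to 42 reads) and 0.975, 2.20, 1.96 and 1.35 FPKM in the CabZ KO libraries (105 to 218 reads). Every KO library was above every Het library, the ratio of means was 8.28, and the exact two-sided permutation p was 0.0286, the smallest possible with n = 4 per group. With no filter on low values, limma gave a difference of 1.11 (SE 0.16) and an adjusted p of 0.0119 over all genes. The highest members of complexes I to V, Ndufb11 (167 ± 26.3 and 186 ± 21.5 FPKM in Het and KO, SD, n = 4 each), Sdhd (54.7 ± 8.66 and 48.1 ± 3.77), Uqcrq (123 ± 14.8 and 112 ± 22.8), Cox7c (84.7 ± 12.8 and 86.8 ± 17.3) and Atp5e (124 ± 20.3 and 114 ± 27.4), had overlapping groups.

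In CabZ 2-cell embryos the members moved in both directions. Of 76 tested, 14 (18.4%) were higher and 29 (38.2%) lower in CabZ KO than in CabZ Het embryos (limma adjusted p under 0.05), beside 25.2% and 30.9% of all 7798 genes tested. With a fold change above 2, 8 rose and 18 fell, beside 16.9% and 20.4%. The groups did not overlap for 16 members that were higher and 26 that were lower in KO, beside 22.9% and 28.1% of all genes. The median difference was -0.25 for members and -0.11 for all genes. Library scaling mattered here: scaling to the median gene moved the median of all genes to 0.13 and the split of members to 20 higher and 26 lower, and the values as deposited, before restoring the length, gave 21 higher and 10 lower with all genes at 0.47. In each of these scalings the members' median lay below that of all genes, by 0.14 and 0.18. With a filter of 5 FPKM the order was reversed, with members at -0.25 and all genes at -0.29. Mitochondrial RNA took 8.99 to 12.9% of the reads in CabZ Het and 2.48 to 5.09% in CabZ KO embryos, and oocyte markers summed to 85.4 to 133 FPKM in Het and 278 to 732 in KO embryos. The 10 granulosa and cumulus markers listed summed to 2.26 to 4.07 FPKM in Het and 0.603 to 1.77 in KO embryos, with Fshr at 0 in Het and Hsd3b1 at 0 in KO libraries. The part of these in the results was not tested.

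Complexes III and V had the lowest medians of the 5 complexes, and 14 of the 29 lower members. In complex III 5 of 8 tested members were lower (median -0.99), and in complex V 9 of 14 were lower and 1 higher (median -0.81). In complex I 7 of 30 (23.3%) were higher and 10 (33.3%) lower (median -0.23), near the shares of all genes (25.2% and 30.9%), and of 5 tested assembly factors 3 were lower and 1 higher. In complex IV 5 of 17 (29.4%) were higher, near the share of all genes, and 2 (11.8%) lower (median 0.26). Differences between complexes were not tested. Only 2 complex II members passed the filter and neither was called (Sdhb 0.20, limma adjusted p = 0.474). Read shares were 0.161 to 0.246% in Het and 0.114 to 0.131% in KO embryos for complex V, and 0.436 to 0.541% and 0.613 to 0.715% for complex IV, without overlap in either. Shares of complexes I and III overlapped. The complex I assembly factors together took 0.0512 to 0.0572% in Het and 0.0817 to 0.0956% in KO embryos, higher in KO without overlap, although more of them were lower than higher.

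Ndufb7, an accessory subunit of complex I, fell furthest. It was at 6.62, 21.8, 21.7 and 14.9 FPKM in CabZ Het and at 1.45, 2.74, 2.90 and 2.46 FPKM in CabZ KO embryos, without overlap (-2.25, SE 0.35, limma adjusted p = 0.000811). In CabZ GV oocytes, in a table normalized separately, it was at 27.8 ± 2.58 FPKM in Het and 23.2 ± 4.16 in KO (SD, n = 4 each, adjusted p = 0.259). Ndufaf1, an assembly factor of complex I, was at 2.03, 4.62, 4.79 and 5.01 FPKM in Het and 0.116, 0.216, 0.449 and 0.326 FPKM in KO embryos (119 to 304 and 5 to 21 reads), 14.9-fold lower by the ratio of means (-1.96, SE 0.25, adjusted p = 0.000323). The first Het library was low for both of these genes and still above all KO libraries. Ndufaf1 passed the filter only through the Het libraries.

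Uqcr10, a small subunit of complex III, was at 91.8, 113, 126 and 105 FPKM in CabZ Het and 27.4, 27.9, 31.7 and 43.1 FPKM in CabZ KO embryos (-1.73, SE 0.20, limma adjusted p = 0.000260). Cox7c, of complex IV, was at 37.0, 63.4, 57.9 and 46.4 against 17.4, 15.7, 12.8 and 12.9 FPKM (-1.71, SE 0.21, adjusted p = 0.000320). Ndufc1, of complex I, was at 6.44 to 15.7 against 1.51 to 4.25 FPKM (-1.68, SE 0.32, adjusted p = 0.00191). None of the 3 overlapped between groups. The highest member of complex I, Ndufa2, fell from 85.5 ± 8.57 to 31.8 ± 1.53 FPKM (SD, n = 4 each; -1.40, adjusted p = 0.000239), and the highest of complex V, Atp5g1, from 66.0 ± 12.9 to 21.8 ± 4.89 FPKM (-1.56, adjusted p = 0.000565). Uqcrfs1, the iron-sulphur subunit of complex III, fell by 1.59 (adjusted p = 0.00115), Ndufs8, a core iron-sulphur subunit of complex I, by 1.59 (adjusted p = 0.00289), and Atp5d, the δ subunit of F1, by 1.55 (adjusted p = 0.000314). The last shares 30.7% of its span with Cbarp on the other strand.

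Among the members that rose, Cox6a2 was at 4.22, 3.96, 2.63 and 2.16 FPKM in CabZ Het and 10.4, 14.1, 14.8 and 16.9 FPKM in CabZ KO embryos (1.84, SE 0.23, limma adjusted p = 0.000315). Its reads were few, 17 to 32 and 58 to 94 per library. Ndufs5, an accessory subunit of complex I, was at 3.49, 2.58, 4.18 and 3.91 against 12.4, 9.66, 11.9 and 22.3 FPKM (1.68, SE 0.26, adjusted p = 0.000740). Cox6c was at 20.7, 19.8, 23.9 and 29.1 against 74.1, 55.1, 69.9 and 94.8 FPKM (1.60, SE 0.21, adjusted p = 0.000402). Each KO library exceeded each Het library for these 3 genes. Ndufaf4, an assembly factor of complex I, rose by 1.45 (37.8 ± 6.39 to 104 ± 10.5 FPKM, adjusted p = 0.000314), and Cox4i2 by 1.06 (0.847 ± 0.318 to 3.00 ± 1.47 FPKM, adjusted p = 0.00964). The Het mean of Cox4i2 was below the filter, so this gene passed only through the KO libraries. Cox6b2, the testis isoform of subunit 6b, had the highest FPKM of any member, at 542 ± 104 in Het and 717 ± 126 in KO embryos, with overlapping groups (0.41, adjusted p = 0.117). Sdhd was at 5.12 ± 1.08 and 4.22 ± 0.629 FPKM (adjusted p = 0.346).

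Set side by side, ZH oocytes and CabZ 2-cell embryos had 72 members tested in both. Of these, 9 were higher in both (Cox4i2, Cox6a1, Cox6c, Ndufa1, Ndufa4, Ndufa5, Ndufab1, Ndufaf4 and Ndufb8), and 17 were higher in ZH KO oocytes and lower in CabZ KO embryos. The 17 included 6 of complex V (Atp5f1, Atp5g1, Atp5g3, Atp5h, Atp5j and Atp5k), 4 of complex III and Cox4i1. Cox6a2 went the opposite way, lower in ZH KO oocytes and higher in CabZ KO embryos, and Atp5a1 was lower in both. Joint counts over all genes are not at hand, and with many members called in each comparison some joint calls arise by chance. These counts are therefore not read as a shared or an opposed response. The 2 comparisons share no libraries but differ in line and in stage, which cannot be told apart here. The difference between the 2 comparisons was not tested.

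In 2-cell embryos from injected oocytes few members were called. Of 63 tested, 0 were higher and 2 lower in the libraries labelled Zscan4 than in GFP libraries (limma adjusted p under 0.05), beside 0.0932% higher and 1.7% lower among all 4293 genes tested. At an unadjusted p under 0.05, 3 were higher and 6 lower, and the share of all genes at that threshold is not at hand. The groups did not overlap for 4 members that were higher and 4 that were lower in Zscan4 libraries, beside 7.71% and 10.5% of all genes. The median difference was -0.10 (all genes 0.03) and 0.05 without replicate B of the libraries labelled Zscan4, in which members took 0.692% of the reads, against 0.922 and 0.930% in the other two. Cox7b, of complex IV, was at 8.75, 8.47, 7.86 and 6.74 FPKM in GFP and 3.44, 2.63 and 4.20 FPKM in Zscan4 libraries (-1.03, SE 0.17, limma adjusted p = 0.0263). Cox7c was at 1.50, 1.42, 1.63 and 1.47 against 0.407, 0.324 and 0.526 FPKM, from 45 to 104 and 14 to 17 reads (-0.82, SE 0.13, adjusted p = 0.0244). Neither overlapped between groups, and only Cox7b also passed a fold change of 2, beside 1.42% of all genes. Both calls were lost when replicate A or B of the libraries labelled Zscan4 was left out, and that of Cox7b also without replicate A, B or C of GFP, where Cox7c did not pass the filter. With all libraries, Cox7c passed the filter only through the GFP libraries. The member of highest FPKM was again Cox6b2 (355 ± 17.5 in 4 GFP and 263 ± 71.0 in 3 Zscan4 libraries, adjusted p = 0.241), Cox4i2 was at most 0.0712 FPKM in any library, and Ndufb11 was at 11.0 ± 0.968 and 11.4 ± 1.57 FPKM (adjusted p = 0.864).

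Levels of paired isoforms were compared per kilobase of exon, so that unequal introns did not enter. Cox4i2 made up 0.684 ± 0.306% of Cox4i1 plus Cox4i2 in ZH Het and 18.5 ± 5.12% in ZH KO oocytes, 0.959 ± 0.559% in CabZ Het and 7.76 ± 2.57% in CabZ KO oocytes, and 5.06 ± 1.88% and 32.9 ± 13.0% in CabZ Het and KO 2-cell embryos (SD, n = 4 each). In each of these 3 comparisons the ranges were apart: the highest control library was at 0.963%, 1.78% and 7.47%, and the lowest KO library at 13.2%, 5.91% and 22.2%. In the CabZ embryos Cox4i1 fell (56.7 ± 14.0 to 20.9 ± 2.09 FPKM, -1.37, limma adjusted p = 0.000702) while Cox4i2 rose. The share was 0.747 ± 0.689% in GFP (n = 4) and 1.94 ± 1.94% in Zscan4 libraries (n = 3).

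Cox6a2 went from 8.63 ± 1.53% of the subunit 6a pair in ZH Het to 2.10 ± 0.514% in ZH KO oocytes, was at 9.91 ± 2.32% and 9.96 ± 0.332% in CabZ oocytes, and went from 1.69 ± 0.735% to 4.01 ± 0.860% in CabZ 2-cell embryos. Cox6b2 held 30.9 to 46.5% of its pair in the 4 groups of GV oocytes and 74.1 to 78.7% in the 4 groups of 2-cell embryos, by group means, so the testis form was the major one in each group of 2-cell embryos. Ndufa4l2 was 1.40 ± 0.352% of its pair in ZH Het and 5.22 ± 1.82% in ZH KO oocytes, and at most 1.50% on average elsewhere. Of the 3 genes for subunit c, whose mature proteins are the same, Atp5g1 gave 62.5 ± 2.34% in ZH Het and 69.5 ± 3.54% in ZH KO oocytes, 59.6 ± 1.95% and 71.0 ± 3.61% in CabZ oocytes, and 55.8 ± 3.66% and 42.7 ± 5.52% in CabZ embryos. The groups overlapped for Atp5g1 in ZH oocytes (Het at most 64.53%, KO at least 64.42%). They also overlapped in CabZ embryos (Het at least 50.54%, KO at most 50.87%), but not in CabZ oocytes. In ZH oocytes the share of Atp5g2 went from 6.04 to 10.7% in Het to 2.52 to 3.35% in KO libraries, without overlap. That of Atp5g3 overlapped (at most 32.9% in ZH Het and 32.2% in ZH KO libraries). In CabZ oocytes Atp5g3 went from 27.1 to 32.0% in Het to 16.5 to 24.7% in KO libraries, without overlap, and Atp5g2 overlapped.

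**Figure D5:**
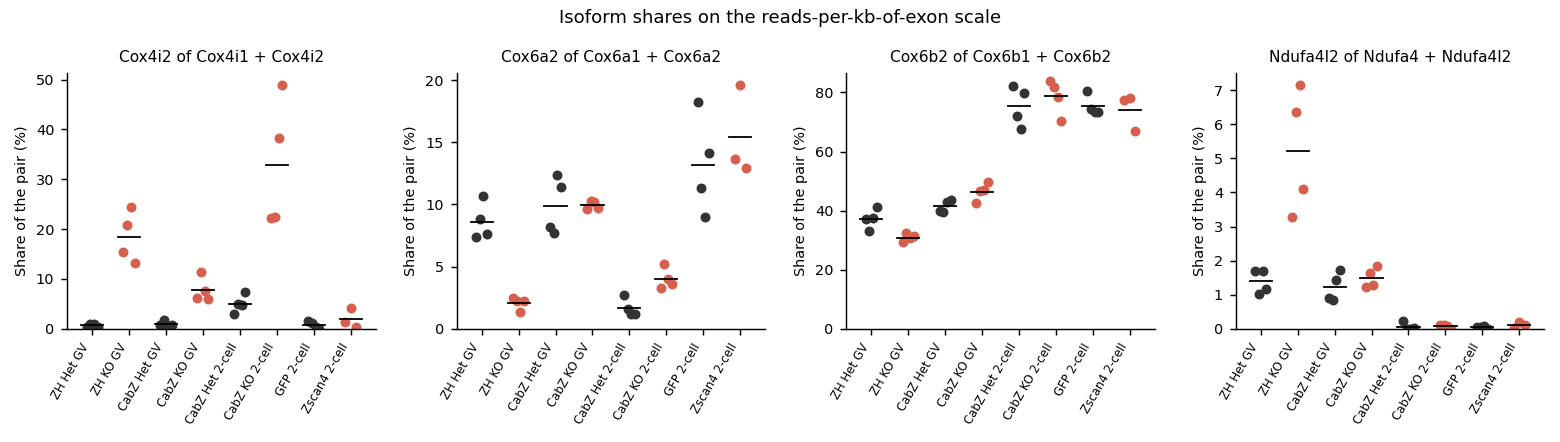
Share of Cox4i2, Cox6a2, Cox6b2 and Ndufa4l2 in their isoform pair (percent of the summed reads per kilobase of exon, vertical axis) in each library (points; black controls, red KO or Zscan4), with the group mean as a line. The mean of Cox4i2 goes from 0.684% to 18.5% in ZH oocytes, from 0.959% to 7.76% in CabZ oocytes and from 5.06% to 32.9% in CabZ 2-cell embryos, and that of Cox6b2 is between 74.1% and 78.7% in every group of 2-cell embryos.

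Other genes of mitochondrial respiration were looked up in lists made for this comparison. The 13 subunits encoded by mitochondrial DNA are listed in the CabZ tables: 9 were lower in CabZ KO oocytes (median -0.95) and 10 in CabZ KO embryos (median -1.22), and none was higher by limma, adjusted or at an unadjusted p, since all 13 differences were below 0 in each. Thus mt-Nd4, of complex I, fell by 1.27 in oocytes (limma adjusted p = 0.00239) and by 2.25 in embryos (adjusted p = 0.000317), whereas nuclear complex I members had medians of -0.12 and -0.23. The shares of all genes that the next counts stand beside are 25.6% higher and 26.3% lower in ZH oocytes, 8.2% and 5.73% in CabZ oocytes, 25.2% and 30.9% in CabZ embryos and 0.0932% and 1.7% in the Zscan4 comparison. Of electron carriers and further assembly factors, 8 were higher and 7 lower of 26 tested in ZH oocytes, near the shares of all genes, 3 were lower of 30 in CabZ oocytes, 3 higher and 12 lower of 26 in CabZ embryos, and 1 was lower of 13 in Zscan4 libraries. Cycs, the gene of cytochrome c, was at 28.2 and 46.2 FPKM on average in ZH Het and KO oocytes (0.67, adjusted p = 0.0131).

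Of regulators of mitochondrial genes, 3 were higher and 2 lower of 9 tested in ZH oocytes, near the shares of all genes (25.6% and 26.3%). In CabZ oocytes 1 was higher and 1 lower of 11, and 7 of 11 were lower in CabZ embryos. Tfam, which packages and transcribes mitochondrial DNA, rose by 0.82 in ZH KO (limma adjusted p = 0.00161) and by 0.65 in CabZ KO oocytes (adjusted p = 0.00840). The CabZ Het mean of Tfam was 0.947 FPKM, below the filter, so in CabZ oocytes Tfam passed only through the KO libraries. Polrmt, the mitochondrial RNA polymerase, rose by 0.95 in ZH KO oocytes (adjusted p = 0.00982), and Mterf3 by 0.58 (adjusted p = 0.0148). The 2 lower regulators there were Mterf1b (-0.68, adjusted p = 0.00270) and Mterf4 (-0.64, adjusted p = 0.00395). In CabZ KO oocytes Tfb1m was lower (-0.51, adjusted p = 0.00604). In CabZ KO embryos Gabpa, a subunit of an ETS-family activator of respiratory genes, fell by 1.81 (adjusted p = 0.00167) and Ssbp1, which binds single-stranded mitochondrial DNA, by 1.86 (adjusted p = 0.000466). Genes of the citric acid cycle were lower for 6 of 13 tested in ZH KO oocytes (median -0.39) and for 6 of 11 in CabZ KO embryos (median -0.68).

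Promoters of respiratory genes are known for sites of the activators NRF1 and of ETS factors and, for some, YY1. RefSeq promoters (GRCm38.p6) were at hand for 75 of the 92 members, and the 250 bases before the start were searched on both strands. The NRF1 letters, GCGC then any base then TGCGC, were in 14 members (18.7%) and in 4.23% of 27025 genes, the ETS letters CCGGAAG in 14 members (18.7%) and 7.83% of genes, and the YY1 letters AAGATGGC in 1 member (1.33%) and 1.83% of genes. At least 1 of the 3 was in 25 members (33.3%) and 12.8% of genes. The promoters below are of members that moved in different directions, with matches to these letters in capitals. Cox6a1 was higher in ZH KO oocytes and CabZ KO embryos, Ndufa11 higher in ZH KO oocytes and lower in CabZ KO embryos, Ndufs5 higher and Ndufb7 lower in CabZ KO embryos, Atp5b lower and Atp5g1 higher in ZH KO oocytes.
Cox6a1, chr5:115348959-115349208, minus strand: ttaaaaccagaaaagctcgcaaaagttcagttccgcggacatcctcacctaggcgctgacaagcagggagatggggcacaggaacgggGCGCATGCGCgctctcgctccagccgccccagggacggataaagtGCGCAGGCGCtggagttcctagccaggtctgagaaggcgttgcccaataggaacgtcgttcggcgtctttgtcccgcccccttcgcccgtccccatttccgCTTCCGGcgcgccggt
Ndufa11, chr17:56717512-56717761, plus strand: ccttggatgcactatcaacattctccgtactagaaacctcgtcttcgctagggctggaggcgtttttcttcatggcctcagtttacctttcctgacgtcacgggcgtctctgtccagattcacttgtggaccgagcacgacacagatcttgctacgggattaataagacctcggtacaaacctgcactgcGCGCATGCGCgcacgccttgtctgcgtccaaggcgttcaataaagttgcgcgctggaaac
Ndufs5, chr4:123718187-123718436, minus strand: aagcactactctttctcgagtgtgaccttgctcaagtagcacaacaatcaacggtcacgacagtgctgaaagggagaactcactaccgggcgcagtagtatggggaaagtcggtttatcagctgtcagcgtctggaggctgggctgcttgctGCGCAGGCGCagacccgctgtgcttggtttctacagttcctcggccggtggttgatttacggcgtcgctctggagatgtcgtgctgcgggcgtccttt
Ndufb7, chr8:83566508-83566757, plus strand: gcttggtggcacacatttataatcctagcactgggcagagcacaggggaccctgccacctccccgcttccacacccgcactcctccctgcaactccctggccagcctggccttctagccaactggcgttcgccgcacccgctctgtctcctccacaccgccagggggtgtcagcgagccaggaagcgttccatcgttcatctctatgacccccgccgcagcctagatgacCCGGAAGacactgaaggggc
Atp5b, chr10:128083057-128083306, plus strand: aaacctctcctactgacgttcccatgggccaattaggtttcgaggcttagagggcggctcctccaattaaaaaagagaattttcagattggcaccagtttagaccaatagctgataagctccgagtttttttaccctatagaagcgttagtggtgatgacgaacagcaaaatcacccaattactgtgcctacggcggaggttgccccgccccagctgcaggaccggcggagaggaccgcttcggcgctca
Atp5g1, chr11:96075632-96075881, minus strand: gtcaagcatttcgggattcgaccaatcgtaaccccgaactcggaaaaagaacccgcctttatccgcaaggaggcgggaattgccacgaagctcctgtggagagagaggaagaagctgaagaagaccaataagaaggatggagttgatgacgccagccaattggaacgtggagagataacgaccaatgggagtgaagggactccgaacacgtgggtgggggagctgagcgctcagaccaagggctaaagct

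Cox6a1 held 3 matches, Ndufa11 and Ndufs5 1 of NRF1 each, Ndufb7 1 of ETS, and Atp5b and Atp5g1 none. The NRF1 letters were thus present both upstream of a member that fell in CabZ KO embryos, Ndufa11, and of members that rose there, Cox6a1 and Ndufs5, and the matches are descriptions of the sequence only. Cox4i2 was without an entry in the promoter table, and its start site had an ATAC-seq peak in 0 of 6 libraries.

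Atp5b and Atp5g1, both without a match, were the only 2 of the 92 members with an ATAC-seq peak within 500 bases of the start site in all 6 libraries of CabZ oocytes, while 31 members had a peak in none. In CabZ Het libraries 21.7%, 30.4% and 59.8% of members had such a peak, and in CabZ KO libraries 21.7%, 8.70% and 6.52%. The means of 37.3 ± 19.9% and 12.3 ± 8.23% (SD, n = 3 each) gave an exact two-sided permutation p of 0.2, where 0.1 is the smallest possible. The difference of -25 percentage points was -13.8 without Het replicate C, the library with the most peaks, and -32.8 without Het replicate A. These shares moved with the number of peaks called per library, 43399, 67074 and 111327 in Het and 46070, 19160 and 29600 in KO, whose part was not tested. Among all protein-coding genes 8.59 to 32.2% of start sites in Het and 3.74 to 12.4% in KO libraries had a peak, and the share of members was above it in all 6 libraries, by 1.61 to 27.5 percentage points. With peaks of a −log10 q of at least 5 it was above in 5 of 6, and KO replicate C had 0 of 92 members with a peak beside 0.287% of protein-coding genes.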

How the data were processed

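The RNA-seq tables were made by the authors with Smart-seq2, STAR 2.5.3a (mm10, GRCm38) and Partek, and ATAC-seq peaks with Bowtie2 2.3 and MACS2, called per sample, per the labels and methods. The authors deposited FPKM values for the ZH and Zscan4 experiments, which the files show to be per kilobase of whole gene span plus a constant of 0.01 or 0.001. The deposited Cabin1 values are a score, namely reads divided by the span a second time and scaled to 1 total per library, plus 0.01. The constant was subtracted, and Cabin1 values were multiplied by the span and divided by the library's sum of value times squared span, which restores FPKM. Peak files were deposited with a score, a fold enrichment (ratio) and −log10 p and q values by the authors' caller, of which positions and −log10 q were used. Authors' columns of comparisons were not used, and files and columns not named here were not used.

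Read counts were estimated from the step of low values: 69.4 to 85.9% of low values were whole multiples within 0.05, so no count test was run. The filter kept genes whose FPKM averaged 1 or more over the libraries compared. The test was run on log2(FPKM + 1) with limma 3.58.1 (R 4.3.3) within each table, 2 groups at a time, with Benjamini-Hochberg adjustment over all tested genes. Single values used exact permutation tests over samples (scipy 1.17.1). Replicate libraries differed by more than sampling noise in each pair, with a chi-square of 7.44 or more per gene.

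The members, gene lists and roles were chosen with earlier results of these data known. Genes were named by a rule: the 8 called members with the largest difference, the member of highest FPKM in each complex, and paired isoforms. Others (Atp5b, Atp5a1, Sdhc, Ndufaf4, Uqcrfs1, Ndufs8, Atp5d and genes outside the members) were named after their values were seen, and 1 member is counted but not reported by name here. 40 members overlap another annotated gene and 5 have pseudogenes named after them. The kit does not mark strand, so reads of overlapping genes cannot be told apart. Alternatives were another pseudocount, filter, scaling, gene length (exonic), a trend in limma, the deposited values, a replicate block, leaving out each library and, for ATAC-seq, a stricter q and a wider window. Scaling to nuclear reads was added after seeing the data.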

Additional observations from a re-analysis of the deposited data

Results flagged for a closer look

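The values below stood apart or differed between lines; 95 groups of 4 libraries were looked at for a library apart from the other 3, and chance alone gives about 1 in 20. Replicate 3 of CabZ Het oocytes was low in the share of reads on all members (1.135%, with the other libraries at 1.32 to 1.35%) and on complex I (0.3737%). Replicate 4 of CabZ KO 2-cell embryos was high in the share of complex II (0.01431%). Replicate 3 of CabZ KO oocytes was high in Atp5g3 (9.744 FPKM), replicate 4 of CabZ Het oocytes was high in Cox7a2l (28.86 FPKM), and replicate 1 of CabZ Het 2-cell embryos was low in Ndufaf1 (2.027 FPKM). Atp5g3 moved in opposite directions in the 2 lines of oocytes, by 0.7428 in ZH KO and by -0.6943 in CabZ KO oocytes on the log2 scale, with groups that did not overlap in either; the difference between the lines was not tested.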

How the results depend on the processing

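In ZH oocytes the median of members was 0.31 to 0.61 under the alternatives of scaling, filter, length and pseudocount. Median scaling gave 10 lower members and 9 with a fold change above 2 (6 and 19 as reported), and leaving out 1 library gave 32 to 43 higher, 6 to 7 lower and 9 to 21 with a fold change above 2, the lowest without ZH Het replicate 2. Of the 42 higher calls 32, and of the 6 lower calls 6, remained in each fit without 1 library. Under all 17 alternatives 27 of the higher and 2 of the lower calls remained, the latter Atp5b and Cox6a2. A member that an alternative filter left out counts as lost here. In CabZ oocytes a pseudocount of 0.1 gave 1 higher member, and dropping the filter or using exonic length gave 1 member with a fold change above 2, Cox4i2. Leaving out 1 library gave 0 to 2 higher, 0 to 5 lower and 0 to 1 with a fold change above 2. In CabZ embryos the median of members was -0.007 under median scaling, the deposited values gave 10 lower members and a reversed median of 0.2925, and the causes were not tested. Leaving out 1 library kept 13 of 14 higher and 26 of 29 lower calls, and all 18 alternatives together kept 11 and 9, counted in the same way.

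In the Zscan4 comparison 2 members had a fold change above 2 with a pseudocount of 0.1, exonic length or scaling to table reads, and 0 under median scaling or no filter, and 1 was lower with a filter of 5 FPKM or none. Without 1 library 0 to 2 were lower, 0 to 1 had a fold change above 2, and the median was -0.2163 to 0.0485, reversed without Zscan4 replicate B. The replicate block gave 0 higher and 1 lower in CabZ oocytes, 0 lower and 0 with a fold change above 2 in the Zscan4 comparison, 40 higher in ZH oocytes and 15 higher in CabZ embryos. Same-numbered libraries had correlated deviations of -0.41 to 0.40 in ZH, -0.18 to 0.14 in CabZ oocytes, -0.05 to 0.13 in CabZ embryos and -0.16 to 0.15 in the Zscan4 experiment. The own number was the best match for replicate 2 in ZH, replicate 3 in CabZ embryos and replicates A and C in the Zscan4 experiment, and not for the others. With so few libraries, a pairing by number was neither shown nor excluded. Without 1 library the differences of Cabin1 (-0.105 to -0.0818 FPKM in oocytes, -0.219 to -0.144 in embryos) and Cox4i2 (1.23 to 1.64 FPKM in CabZ oocytes) kept their sign, and with 3 against 4 libraries the exact permutation test cannot go below 0.0571. The ATAC-seq difference was -6.52 percentage points at a −log10 q of 5, -25.7 with a window of 1000 bases and -32.8 to -13.8 without 1 library. For single named members no alternative reversed a called direction, and 82 of the alternative values were no longer past the threshold.

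Depth limits low genes such as Hira and Cox4i2 in controls, FPKM per gene span counts intronic reads, and shares of mitochondrial RNA and stage markers moved with some groups.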
